A study of Mus musculus with 14 samples.

Results

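The heme synthesis enzymes were followed as 9 genes in cultured mouse BFU-E, the burst-forming unit-erythroid cells from which red blood cells descend. The genes were chosen by name: Alas1, Alas2, Alad, Uros, Urod, Cpox, Ppox and Fech, which encode enzymes of the pathway, and Slc25a38, which encodes a mitochondrial carrier that supplies it. They are 9 of 23599 genes with usable values in 1 set of libraries (the OB set) and 9 of 54540 in the other (the PD set), and all 9 had values in every library of both. Cells came from C57BL/6 fetal liver and were grown in serum-free medium (StemSpan SFEM II). Their RNA was measured by sequencing in 4 groups of 3 libraries. The treated groups received 100 µM of compound OB or 3 nM of compound PD, and each has its own solvent control, called OB DMSO and PD DMSO. No allele or transgene is named in the labels, and no time in culture or embryonic age. Nothing in the labels states whether replicates are separate cultures or separate animals, and p-values then measure only the spread between these libraries, which may be technical. A CREB chromatin immunoprecipitation and its input also belong to the series and were not analysed here.

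Heme is built in steps that begin and end in the mitochondrion. ALA synthase joins glycine and succinyl-CoA there, and it exists as Alas1, found in most tissues, and Alas2, the X-linked form of red cell precursors, whose reaction limits the rate of the erythroid pathway. Alad, Uros and Urod act in the cytosol, Cpox and Ppox in the mitochondrion, and Fech inserts iron into protoporphyrin to give heme, which fills hemoglobin as erythroid cells mature.

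By RefSeq's annotation (build GRCm38.p6, the same assembly as mm10), Alas1 lies on chromosome 9 at 106233455 to 106247954 and Alas2 on chromosome X at 150547417 to 150570622. Alad lies on chromosome 4 at 62505984 to 62520063 and Urod on the same chromosome at 116989965 to 116994436. Uros lies on chromosome 7 at 133686142 to 133710467, Cpox on chromosome 16 at 58670208 to 58680391, Ppox on chromosome 1 at 171276991 to 171281193 and Slc25a38 on chromosome 9 at 120110377 to 120126093. Alas2 overlaps Apex2 and Mir3620, and Uros overlaps Bccip. Whether the counting used strand is not given in the sources used here, so reads of such neighbours may be counted in Alas2 and Uros.

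The RefSeq promoter table (GRCm38.p6) held windows of 300 bases around annotated starts for 8 of the 9 genes. Windows were searched on both strands for the letters bound by GATA factors, which drive erythroid genes (AGATAA or AGATAG, and equally TGATAA or TGATAG), for the half-site bound by CREB (TGACG) and for the full CREB site (TGACGTCA, which holds the half-site on both strands). The 250 bases before the start of both ALA synthase genes, of Alad and of Cpox are shown because the 2 synthases and Alad are contrasted between sets below, Cpox holds both kinds of letters, and the windows of these 4 genes begin at the gene's own annotated start; capitals mark GATA letters and CREB half-sites.
Alas1, chr9:106247955-106248204, minus strand: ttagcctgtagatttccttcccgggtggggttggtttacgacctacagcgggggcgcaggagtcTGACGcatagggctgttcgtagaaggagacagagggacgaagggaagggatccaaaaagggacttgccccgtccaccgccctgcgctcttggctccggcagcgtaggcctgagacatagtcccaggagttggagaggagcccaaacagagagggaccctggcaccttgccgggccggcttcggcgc
Alas2, chrX:150547167-150547416, plus strand: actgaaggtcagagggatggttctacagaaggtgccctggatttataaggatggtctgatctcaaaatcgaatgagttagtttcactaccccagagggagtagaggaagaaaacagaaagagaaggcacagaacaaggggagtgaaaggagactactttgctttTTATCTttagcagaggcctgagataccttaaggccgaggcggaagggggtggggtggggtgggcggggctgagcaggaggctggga
Alad, chr4:62520064-62520313, minus strand: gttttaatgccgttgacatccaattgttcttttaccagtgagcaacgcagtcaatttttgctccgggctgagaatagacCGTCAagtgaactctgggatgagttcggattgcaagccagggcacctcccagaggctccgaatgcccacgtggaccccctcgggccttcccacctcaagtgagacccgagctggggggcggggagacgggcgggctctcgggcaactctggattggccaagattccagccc
Cpox, chr16:58669958-58670207, plus strand: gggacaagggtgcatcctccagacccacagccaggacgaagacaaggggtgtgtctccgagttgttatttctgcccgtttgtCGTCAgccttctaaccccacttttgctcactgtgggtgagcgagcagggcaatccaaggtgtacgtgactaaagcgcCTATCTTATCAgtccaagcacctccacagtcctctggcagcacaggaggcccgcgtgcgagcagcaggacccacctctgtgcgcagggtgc
The single GATA match of Alas2 begins 86 bases before the start. In Cpox a pair of GATA matches begins 91 and 86 bases before the start and shares 1 base. Another match in its window, TTATCT, begins at position 5 after the start, beyond the stretch shown. Cpox also holds a CREB half-site, as do the stretches of Alas1 and Alad. Alas1, Alad and Uros have a pair of windows, so that the 8 genes have 11 windows in all. The paired windows of Alas1 and of Alad overlap, so the 11 are not independent. Those of Uros, Urod, Ppox and Slc25a38 do not begin at the gene's own annotated start. GATA letters were found in 3 of the 11 (27.3%; 1 window each of Alas2, Uros and Cpox), against 29.8% of 32817 windows of all genes. CREB half-sites were found in 5 of the 11 (45.5%; 1 window each of Alas1, Alad, Uros, Cpox and Ppox), against 20.8% of all windows. None of the 11 held the full CREB site, which 1.79% of all windows hold. A match is a run of letters and not a measured binding site.

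Every library carried erythroid genes. Erythroid regulators and maturation genes (24 listed for OB libraries, 25 for PD libraries) summed to 3094 to 7028 FPKM (fragments scaled to gene length and library size). Among them Gata1, the master erythroid transcription factor, lay between 131.6 and 184.7 FPKM. The 10 early progenitor genes summed to 150.0 to 401.9 FPKM. Of these, Kit, the stem cell factor receptor, lay between 20.38 and 41.70 FPKM. Meis1 lay between 1.53 and 15.19 FPKM and Gata2 between 20.97 and 89.33 FPKM. The PD set also carried granulocyte genes: the summed level of 12 neutrophil markers was 11670 to 17660 FPKM in PD DMSO and 29820 to 37580 FPKM with compound PD, against 145.1 to 580.7 FPKM over the 6 libraries of the OB set. Sums of 10 megakaryocyte markers were 2505 to 4936 FPKM in PD DMSO, 4600 to 8075 FPKM with compound PD and 526.0 to 1506 FPKM in the OB set. Sums of 10 mast cell and basophil markers were 996.8 to 3501 FPKM in the PD set and 9.01 to 38.76 FPKM in the OB set. Markers of hepatocytes (8 genes, at most 6.44 FPKM in all, Ttr at 0) and macrophages (10 genes, at most 30.78 FPKM in all, C1qb and C1qc at 0 in the OB set) were low in every library. PD DMSO replicate 1 stood apart from its 2 mates, with a median log2 deviation of −0.28 over all tested genes and of 0.51 over 25 erythroid genes, so tests of the PD set are given with and without it. In bulk RNA, fewer cells of a type and less RNA per cell cannot be told apart.

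FPKM values are scaled to gene length, so levels of different genes can be set side by side. In OB DMSO the erythroid synthase Alas2 exceeded the general form Alas1 by far. Alas2 measured 342.07, 277.80 and 310.28 FPKM in replicates 1, 2 and 3, and Alas1 measured 10.63, 7.51 and 6.99 FPKM. Cpox, which makes protoporphyrinogen, was the highest of the 9 genes at 502.8 ± 39.35 FPKM (SD, n = 3). After it came Alas2 (310.1 ± 32.14 FPKM), Urod (301.1 ± 17.33 FPKM), Fech (194.7 ± 11.23 FPKM), Ppox (135.1 ± 14.32 FPKM), Uros (89.82 ± 5.398 FPKM), Slc25a38 (61.64 ± 8.501 FPKM), Alad (59.35 ± 19.72 FPKM) and Alas1 (8.377 ± 1.969 FPKM). The ranges of neighbours in this order did not overlap, except those of Alas2 with Urod and of Slc25a38 with Alad.

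In PD DMSO the order was looser, and 1 library spread most genes. Alas2 measured 1126.16 FPKM in replicate 1 and 381.73 and 375.56 FPKM in replicates 2 and 3. Its mean of 627.8 ± 431.6 FPKM (SD, n = 3) headed the 9 genes, and its range overlapped that of Cpox (587.3 ± 38.92 FPKM), the next in order. Urod (327.6 ± 103.7 FPKM), Fech (259.5 ± 131.4 FPKM) and Alad (250.3 ± 28.99 FPKM) followed with ranges that overlapped from neighbour to neighbour. Uros (137.6 ± 45.26 FPKM) overlapped Ppox (132.3 ± 71.78 FPKM), and Slc25a38 (65.05 ± 10.39 FPKM) overlapped Alas1 (61.10 ± 13.17 FPKM). Ranked among the genes with at least 1 FPKM in the same library, Alas2 lay between percentiles 97 and 99.2 over the 12 libraries and Cpox between 98.1 and 98.7. Alas1 had the widest span, from percentile 29 in the OB set to 93.1 in the PD set.

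**Figure D1:**
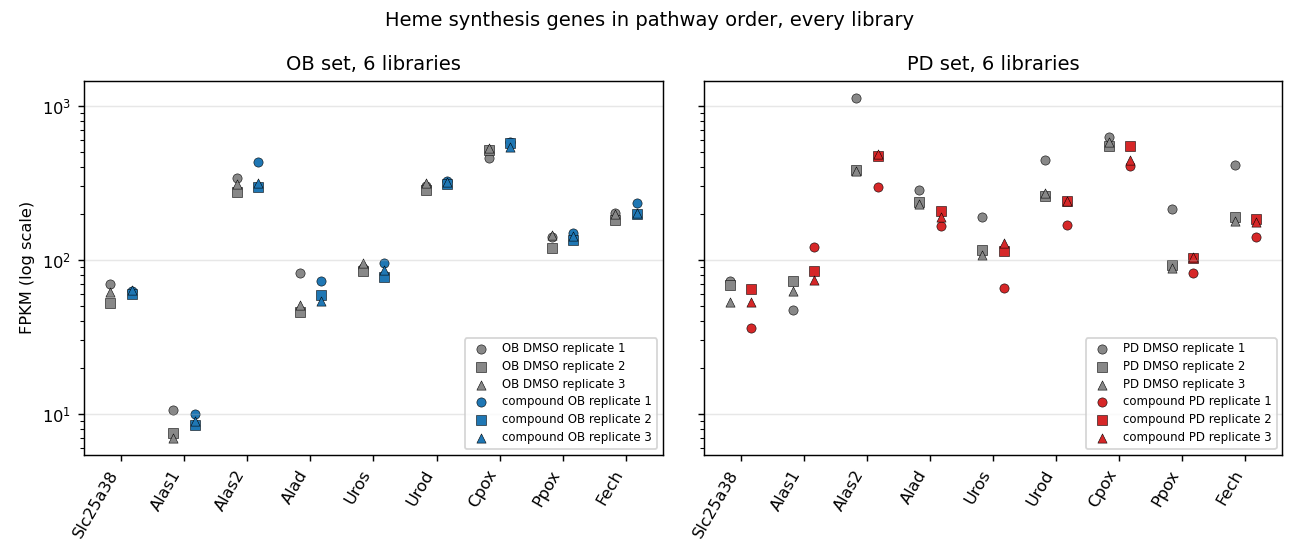
FPKM (log scale) of the 9 heme genes in pathway order, 1 point per library, OB set on the left and PD set on the right, with DMSO in grey and compound in colour. Alas1 sits near 10 FPKM in the OB set and between 47.21 and 120.80 FPKM in the PD set, and the circle of PD DMSO replicate 1 lies above the other PD libraries for 8 of the 9 genes.

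Between the control groups, Alas1 and Alad differed most of the 9. The mean of Alas1 was 7.29-fold higher in PD DMSO than in OB DMSO (8.12-fold without PD DMSO replicate 1), a ratio at percentile 99.4 of 7148 genes. That of Alad, which joins ALA into porphobilinogen, was 4.22-fold higher (3.94-fold without that library; percentile 98.4). The other 7 genes had ratios between 0.979 (Ppox) and 2.02 (Alas2), and that of Alas2 was 1.22 without PD DMSO replicate 1. The median gene had a ratio of 1.01. The sets list different numbers of entries and stand in separate tables, so these ratios were not tested, and set, preparation and the granulocyte markers given above cannot be told apart.

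Put as a ratio within a library, Alas2 exceeded Alas1 32.2 to 44.4 times in OB DMSO and 35.2 to 43.3 times with compound OB. In the PD set the ratio was 23.9, 5.2 and 5.99 in PD DMSO and 2.45, 5.58 and 6.67 with compound PD. Every library of the OB set therefore lay above every library of the PD set, and the groups within a set overlapped. The highest and the lowest ratio of the PD set belonged to PD DMSO replicate 1 and compound PD replicate 1.

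**Figure D2:**
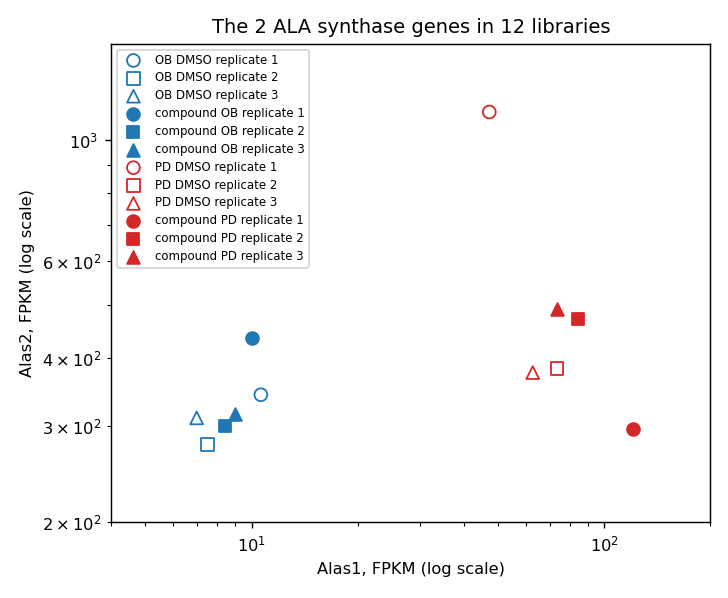
Alas1 (horizontal) against Alas2 (vertical) in FPKM, both on log scales, for the 12 libraries, with open symbols for DMSO and filled symbols for compound. The 6 OB libraries lie at the left, between 6.99 and 10.63 FPKM of Alas1, and the 6 PD libraries at the right, with PD DMSO replicate 1 alone at the top.

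Compound OB was compared with its DMSO controls to ask which genes it changes in BFU-E. The 9 heme genes differed little: 8 were higher and 1 (Uros) lower on average, and their median log2 fold change was 0.10, with values from −0.06 to 0.18. Over all 10073 genes tested, 58.7% were higher and the median was 0.03. None of the 9 passed limma's test across all genes (adjusted p = 0.9998 for each), where the genes called were 0% of those tested and 372 (3.69%) had an unadjusted p under 0.05, none of them a heme gene. Cpox was the 1 gene of the 9 whose groups did not overlap, against 8.74% of all genes tested.

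Cpox measured 458.91, 514.41 and 534.99 FPKM in OB DMSO and 585.53, 578.97 and 541.58 FPKM with compound OB. Each compound library lay above each control library, by little in replicate 3. Its log2 fold change was 0.18 (SE 0.08, 95% interval −0.02 to 0.38; limma adjusted p = 0.9998). Alas2 measured 434.61, 299.69 and 315.32 FPKM with compound OB, so that replicate 1 was the highest of the 6 libraries and the other 2 fell within the control range. Its log2 fold change was 0.16 (SE 0.16, 95% interval −0.22 to 0.54), and −0.01 without compound OB replicate 1. Fech measured 202.14, 181.75 and 200.10 FPKM in OB DMSO and 233.32, 198.63 and 201.76 FPKM with the compound, a log2 fold change of 0.12 (SE 0.10, 95% interval −0.11 to 0.34). Here too compound OB replicate 1 was the highest library and the groups overlapped.

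Among the genes that supply or start the pathway, Alas1 measured 10.03, 8.41 and 8.95 FPKM with compound OB, inside the control range of 6.99 to 10.63 FPKM (log2 fold change 0.13, SE 0.17). Slc25a38, which brings glycine into mitochondria, measured 60.13 to 63.84 FPKM with the compound and 52.85 to 69.82 FPKM in DMSO. Its log2 fold change was 0.02 (SE 0.12), and −0.01 with median-ratio scaling and with quantile normalization. In the cytosol, Alad measured 81.94, 45.54 and 50.58 FPKM in OB DMSO and 72.64, 59.40 and 53.77 FPKM with the compound (log2 fold change 0.10, SE 0.23). Replicate 1 was the highest library of both groups. Without compound OB replicate 1 the value was −0.02 and without OB DMSO replicate 2 it was −0.07. Uros, which closes the porphyrin ring, had a log2 fold change of −0.06 (SE 0.11; 0.02 without compound OB replicate 2) and Urod, which trims its side chains, one of 0.08 (SE 0.08). Ppox, which makes protoporphyrin, had one of 0.08 (SE 0.10; −0.01 without OB DMSO replicate 2). Groups overlapped for all 6 of these genes.

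Replicate numbers were taken to pair the libraries of the OB set, so differences can also be read within numbers. The pairing rests on correlations between libraries, which were less clear for number 2. Alas2, Urod, Cpox and Fech were higher with the compound in 3 of 3 pairs, a pattern that 23.1% of all genes showed. For these 4 genes the difference was smallest in pair 3: Cpox was 1.28-fold, 1.13-fold and 1.01-fold of its control in pairs 1, 2 and 3, and Alas2 was 1.27-fold, 1.08-fold and 1.02-fold. Alas1, Alad, Ppox and Slc25a38 were higher in 2 of 3 pairs, and Uros in 1 of 3. With the replicate number as a block the 95% interval of Cpox was 0.01 to 0.35 (unadjusted p = 0.0405 in limma) and those of the other 8 held 0, where 14.9% of all genes had an unadjusted p under 0.05. The adjusted p of the 9 genes in that fit ran from 0.317 (Cpox) to 0.903 (Slc25a38), so none was called, and 7 genes of all tested were (0.0695%). The sum of the 9 levels was 1567 to 1724 FPKM in OB DMSO and 1727 to 1971 FPKM with the compound. It was not tested, and no share over other sums of genes was computed. In the PD set the sums overlapped, at 1959 to 3419 FPKM in PD DMSO and 1483 to 2025 FPKM with compound PD.

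Compound PD was compared with its own DMSO controls in the same way. Alas1 was the only gene of the 9 that was higher on average, and the other 8 were lower; the median log2 fold change of the 9 was −0.41. Of all 11887 genes tested, 40.9% were lower and the median was 0.06. None of the 9 passed the test (limma adjusted p from 0.374 to 0.853), and 3 genes of all tested did (0.0252%). Alas1, Alad, Urod and Cpox had an unadjusted p under 0.05, as did 10.7% of all genes. Without PD DMSO replicate 1, 6 of the 9 were lower, the median was −0.17, against 53% of genes lower and a median of −0.02 over all genes, and again none was called (adjusted p from 0.187 to 0.815), while 1.4% of all genes were.

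Groups did not overlap for 3 of the 9 genes, Alas1, Alad and Urod, against 16.8% of all genes tested; the same 3 did not overlap without PD DMSO replicate 1, where 39.1% of all genes did not. Alas1 measured 47.21, 73.40 and 62.70 FPKM in PD DMSO and 120.80, 84.44 and 73.56 FPKM with compound PD. The lowest compound library lay just above the highest control library. Its log2 fold change was 0.59 (SE 0.23, 95% interval 0.07 to 1.11; limma adjusted p = 0.395), and 0.42 (SE 0.20; adjusted p = 0.312) without PD DMSO replicate 1. With compound PD replicate 1 left out as well, a choice made after seeing the data, it was 0.21 (SE 0.12; adjusted p = 0.387). Group averages of granulocyte and megakaryocyte markers were higher as well: all 12 neutrophil and all 10 megakaryocyte markers were higher with compound PD, none of them called. Single libraries were less uniform. In compound PD replicate 1, the highest in Alas1, 5 of 12 neutrophil and all 10 megakaryocyte markers lay above the mean of its mates. Those 5 were Mpo (932.52 FPKM, against 462.97 and 421.61 FPKM in the mates), Elane, Prtn3, Ctsg and Csf3r, and 7 lay below. There 7 of 9 mast cell and basophil markers and 8 of 10 early progenitor genes also lay above the mates. In PD DMSO replicate 1, the lowest in Alas1, none of 12 neutrophil and all 10 megakaryocyte markers lay above. So did 5 of 9 mast cell and basophil markers and 2 of 10 early progenitor genes. Without PD DMSO replicate 1, 11 of 12 neutrophil markers were higher and 3 were called, S100a8 (log2 fold change 1.03), S100a9 (0.99) and Camp (1.06). All 10 megakaryocyte markers were higher there and 6 were called, with log2 fold changes from 0.96 (Itga2b) to 1.41 (Gp1bb); the others were Gp9, Gp1ba, Treml1 and Vwf. Of 9 mast cell and basophil markers tested, 7 were higher and 2 lower in both fits, with none called in the fit of all libraries. The basophil protease Prss34 was called lower without PD DMSO replicate 1 (log2 fold change −3.17, SE 0.17; limma adjusted p = 0.00304), at 1.30, 31.79 and 31.45 FPKM in PD DMSO and 2.37 to 2.96 FPKM with compound PD. The part of these cells in the Alas1 level was not tested.

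Alad measured 283.62, 236.46 and 230.82 FPKM in PD DMSO and 164.96, 209.32 and 189.54 FPKM with compound PD. Every compound library lay below every control library. The log2 fold change was −0.41 (SE 0.15, 95% interval −0.76 to −0.06; limma adjusted p = 0.374) with all libraries and −0.32 (SE 0.11; adjusted p = 0.187) without PD DMSO replicate 1, and −0.23 (SE 0.08; adjusted p = 0.195) without both replicates 1. Urod measured 447.18, 261.80 and 273.90 FPKM in PD DMSO and 169.28, 242.16 and 242.12 FPKM with the compound. The nearest libraries of its groups were PD DMSO replicate 2 and compound PD replicate 2. The log2 fold change was −0.56 (SE 0.24, 95% interval −1.09 to −0.03; adjusted p = 0.439), and −0.32 (SE 0.16; adjusted p = 0.335) without PD DMSO replicate 1. Without both replicates 1 it was −0.14 (SE 0.07; adjusted p = 0.321).

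For Alas2 the direction rested on 1 control library. With compound PD it measured 296.19, 471.38 and 490.64 FPKM, so that replicates 2 and 3 lay above 2 of the 3 controls and far below PD DMSO replicate 1. The log2 fold change was −0.41 (SE 0.42, 95% interval −1.38 to 0.56; limma adjusted p = 0.853) with all libraries and 0.11 (SE 0.21, 95% interval −0.38 to 0.60; adjusted p = 0.815) without that control. With compound PD replicate 1 left out as well it was 0.34 (SE 0.07, 95% interval 0.18 to 0.51; adjusted p = 0.0697), in a fit that called 2.12% of all genes. Ppox behaved alike, at 215.19, 92.57 and 89.24 FPKM in PD DMSO and 82.64, 102.28 and 104.07 FPKM with the compound. Its log2 fold change was −0.34 (SE 0.31) with all libraries, 0.08 (SE 0.12) without PD DMSO replicate 1 and 0.18 (SE 0.08; adjusted p = 0.287) without both libraries. For both genes the interval with all libraries held changes in either direction.

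Fech measured 411.04, 189.00 and 178.37 FPKM in PD DMSO and 141.80, 183.07 and 175.66 FPKM with compound PD. Its groups overlapped, and its log2 fold change of −0.53 (SE 0.30, 95% interval −1.21 to 0.14) became −0.15 (SE 0.13) without PD DMSO replicate 1. Cpox measured 626.32, 548.49 and 587.22 FPKM in PD DMSO and 406.31, 552.56 and 448.21 FPKM with the compound, and 1 compound library lay within the control range. Its log2 fold change of −0.33 (SE 0.15) moved less, to −0.29 (SE 0.13). Uros measured 107.93 to 189.69 FPKM in PD DMSO and 65.44 to 128.90 FPKM with the compound, a log2 fold change of −0.42 (SE 0.29), which became −0.17 without PD DMSO replicate 1 and 0.13 without both libraries. Slc25a38 measured 53.27 to 72.89 FPKM in PD DMSO and 35.87 to 64.86 FPKM with the compound, at −0.36 (SE 0.23) with all libraries and −0.28 (SE 0.24) without that control. Without both replicates 1, Fech was at −0.03 (SE 0.08), Slc25a38 at −0.04 (SE 0.16) and Cpox at −0.19 (SE 0.11). The groups of these 4 genes overlapped in each case.

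**Figure D3:**
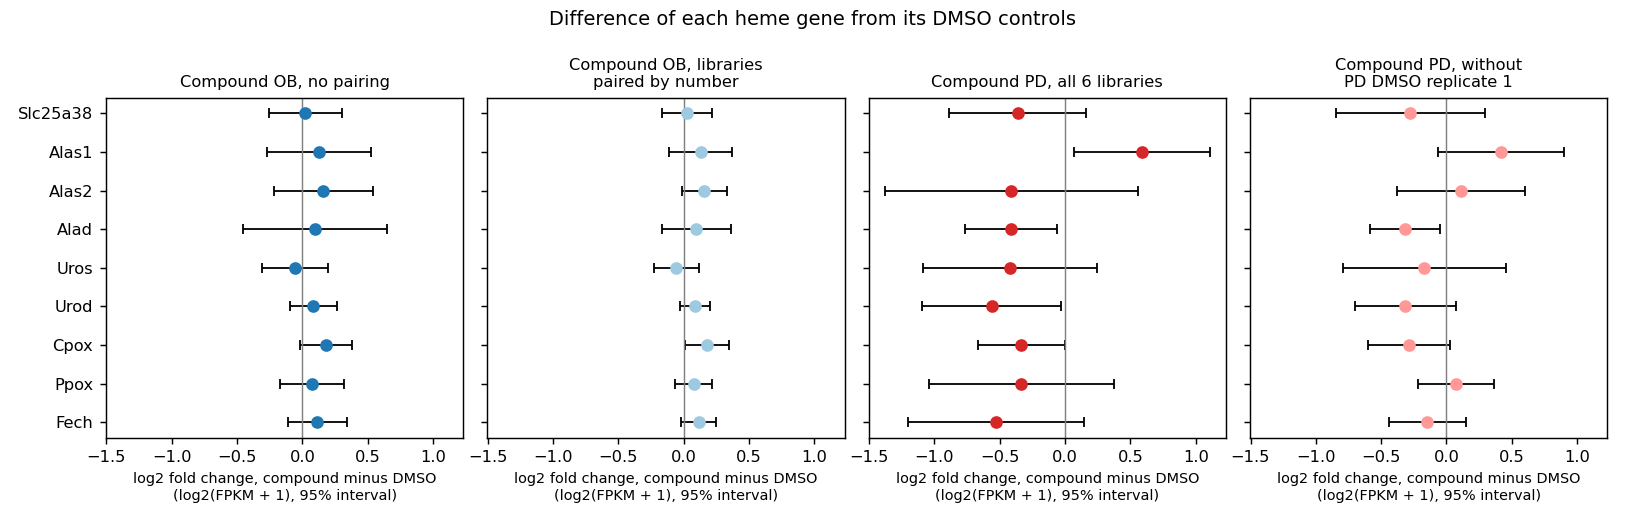
Log2 fold change of the 9 heme genes, compound minus DMSO on log2(FPKM + 1), with 95% intervals from limma; from left to right, compound OB without pairing, compound OB with libraries paired by number, compound PD, and compound PD without PD DMSO replicate 1. All unpaired compound OB intervals hold 0 and the paired one of Cpox runs from 0.01 to 0.35, while Alas2 and Ppox move from −0.41 and −0.34 in the third panel to 0.11 and 0.08 in the fourth.

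The same libraries were extreme for nearly every heme gene of the PD set. For 8 of the 9 genes PD DMSO replicate 1 was the highest of the 6 libraries and compound PD replicate 1 the lowest, a pair of extremes shared by 4.26% of all genes. For Alas1 the places were exchanged, as they were for 15.3% of all genes. PD DMSO replicate 1 held 2.97 times the mean of its mates for Alas2, 2.37 times for Ppox and 2.24 times for Fech. For Uros and Urod the figures were 1.70 and 1.67, and for Alad, Slc25a38 and Cpox 1.21, 1.19 and 1.10. Alas1 stood at 0.694 of its mates there. The genes thus spread unequally, Alas2 most and Cpox least among the 8. In this library 22 of 25 erythroid genes, all 10 megakaryocyte markers and none of 12 neutrophil markers lay above the mean of the mates; their part in the heme genes' levels was not tested.

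**Figure D4:**
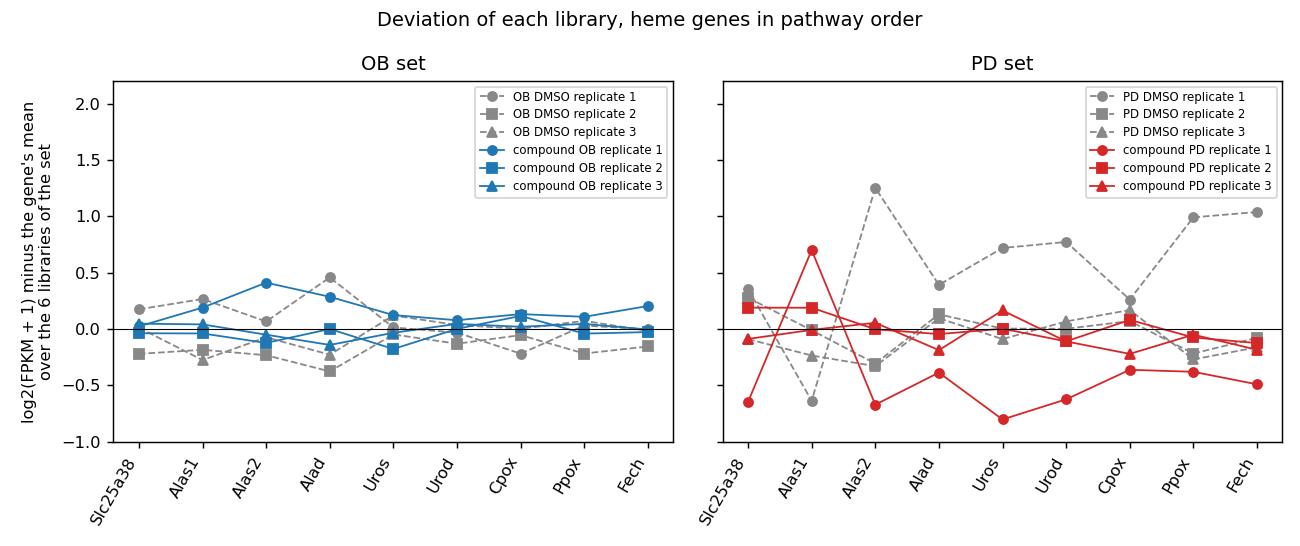
Deviation of each library from the gene's mean over the 6 libraries of its set, on log2(FPKM + 1), for the 9 heme genes in pathway order, with dashed grey lines for DMSO and solid coloured lines for compound. In the PD set the lines of PD DMSO replicate 1 and compound PD replicate 1 run at the top and the bottom and cross at Alas1.

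Levels of the 9 genes were correlated with each other within each set. The share of like signs over all pairs of genes was not computed. In the PD set Pearson's r of log2 levels over the 6 libraries was positive for all 28 pairs of the 8 genes other than Alas1 (0.567 to 0.987) and negative for all 8 pairs with Alas1 (−0.964 to −0.759). Over the 5 libraries without PD DMSO replicate 1 the signs were the same for all of these pairs, with values of 0.234 to 0.990 and −0.969 to −0.451. In the OB set 25 of 28 pairs were positive (−0.321 to 0.964), as were 7 of the 8 with Alas1. The negative pairs of that set all held Cpox, with Alas1 (−0.204), Alad (−0.222), Uros (−0.069) and Slc25a38 (−0.321). Pairs share the same 6 libraries and, in the PD set, the same extreme libraries, so these values only describe them. By the lower of the r values in the 2 sets, among 7184 genes with at least 5 FPKM in both, the genes most like Alas2 over 6 libraries a set were Htatip2 (0.969), Ypel5 (0.964), Slfn14 (0.964), Fech (0.962) and Blvrb, a biliverdin reductase (0.952). Among those most like Alas1 were Hsdl1 (0.967), Zswim1 (0.961), Aacs (0.956) and Tpm3 (0.953). Of the 9 genes, Fech was among these.

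The difference between the effects of compound PD and compound OB was tested in 1 fit of all 12 libraries. It was below 0 for 8 of the 9 genes and above 0 for Alas1 (0.46, SE 0.30), with a median of −0.51, against 0.02 over 10311 genes. Cpox differed by −0.51 (SE 0.17, 95% interval −0.88 to −0.15; limma adjusted p = 0.449) and Urod by −0.65 (SE 0.27, 95% interval −1.23 to −0.06; adjusted p = 0.608). These 2 had an unadjusted p under 0.05, as did 7.38% of all genes, and no gene was called (0%). Without PD DMSO replicate 1 the difference was −0.47 for Cpox (SE 0.16; adjusted p = 0.235) and −0.40 for Urod (SE 0.19; adjusted p = 0.359), and for Alas2 it went from −0.57 (SE 0.50) to −0.05 (SE 0.28). In that fit 15 genes of all tested were called (0.146%), none of them a heme gene. Compound, dose and set go together, so they cannot be told apart in this difference.

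Around the 9 genes, 40 other genes of heme synthesis, transport, breakdown and sensing were followed. With compound OB, 37 were tested, 23 were higher and 14 lower, none was called, and their median was 0.02. Hmox1, the heme oxygenase that breaks heme down, measured 57.96 ± 25.18 FPKM in OB DMSO and 79.20 ± 43.81 FPKM with the compound (SD, n = 3; log2 fold change 0.40, SE 0.42). It was higher in 3 of 3 pairs, and with the replicate block the SE was 0.09 (95% interval 0.18 to 0.62; limma adjusted p = 0.224). Slc6a9, a glycine transporter of the cell surface, had a log2 fold change of 0.30 (SE 0.18) and Lonp1, a mitochondrial protease, one of 0.27 (SE 0.10), both with adjusted p = 0.9998 in limma (0.207 and 0.276 with the block). With compound PD, 38 were tested, 13 were higher and 25 lower, none was called, and the median was −0.11 (14, 24 and −0.09 without PD DMSO replicate 1). The 3 with the largest differences over all libraries lay lower on average. Fam210b, a mitochondrial membrane protein of erythroid cells, measured 33.80 ± 14.37 FPKM and 22.12 ± 3.884 FPKM (log2 fold change −0.53, SE 0.28; −0.21 without PD DMSO replicate 1), and Abcg2, an exporter of porphyrins, 95.58 ± 31.47 FPKM and 65.96 ± 9.572 FPKM (−0.49, SE 0.23; −0.24 without that library). PD DMSO replicate 1 was the highest library for both, at 50.40 and 131.90 FPKM. Glrx5, which serves iron-sulfur cluster assembly, measured 253.4 ± 21.19 FPKM in PD DMSO and 187.2 ± 23.11 FPKM with compound PD. Its groups did not overlap, as was so for 16.8% of all genes tested. Its log2 fold change was −0.44 (SE 0.15, limma adjusted p = 0.318), and −0.38 without PD DMSO replicate 1. Without that library the largest difference was that of Hmox2, the constitutive heme oxygenase, which was higher on average (0.48, SE 0.13, limma adjusted p = 0.115). Next came Glrx5 and Hspa9, a mitochondrial chaperone (−0.37, SE 0.09, limma adjusted p = 0.0870). Hspa9 measured 130.82, 219.44 and 215.36 FPKM in PD DMSO and 159.98 to 174.56 FPKM with compound PD, so the library left out lay below all compound libraries. For Hmox2 that library held 39.38 FPKM, within the compound range of 37.18 to 46.16 FPKM.

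Iron and erythroid genes were counted in the same way. Of 11 genes of iron uptake and sensing, 6 were higher with compound OB (median 0.08) and 5 with compound PD (median −0.04; 2 and −0.06 without PD DMSO replicate 1), and none was called. With compound OB the largest differences were those of Ncoa4, the receptor that delivers ferritin for breakdown (log2 fold change −0.33, SE 0.08; limma adjusted p = 0.984), the transferrin receptor Tfrc (−0.24) and Steap3 (0.20). Tfrc measured 525.7 ± 93.73 FPKM in PD DMSO and 394.8 ± 66.28 FPKM with compound PD (SD, n = 3; log2 fold change −0.41, SE 0.18; limma adjusted p = 0.455), and the log2 fold change was −0.27 without PD DMSO replicate 1. It was followed by Fth1 (−0.25) and Fbxl5 (0.21), which were at −0.15 and −0.05 without that library. There Steap3 (−0.31) and Slc40a1 (−0.16) were among the 3 largest. Over all libraries Steap3 averaged 59.62 FPKM in PD DMSO and 55.97 FPKM with compound PD. Slc40a1 averaged 47.76 and 48.81 FPKM, higher with the compound. Of 24 erythroid regulators and maturation genes tested with compound OB, 20 were higher (median 0.11), and of 25 tested with compound PD, 23 were lower (median −0.39; 17 lower and −0.15 without PD DMSO replicate 1), with none called in any of these fits. The largest differences were those of Aqp1 (0.67), Sptb (0.37) and Zfpm1 (0.32) with compound OB and of Epb42 (−0.62), Trim10 (−0.59) and Car2 (−0.56) with compound PD. Without PD DMSO replicate 1, Epb42 was at −0.13 and Trim10 at −0.06, and Car2 (−0.46), Car1 (−0.45) and Bpgm (0.37) were the largest. Over all libraries Bpgm was lower on average with compound PD, at 257.7 FPKM against 282.0 FPKM. PD DMSO replicate 1 was its highest library, at 471.98 FPKM. Car1 measured 18.10, 44.61 and 30.10 FPKM in PD DMSO and 20.72 to 33.85 FPKM with compound PD. The 10 early progenitor genes, of which 9 were tested with compound OB, were higher in 8 cases there (median 0.29) and in 10 of 10 cases with compound PD (median 0.38; 9 of 10 and 0.23 without PD DMSO replicate 1), also with none called. Kit measured 24.03 ± 1.577 FPKM in OB DMSO and 38.16 ± 3.091 FPKM with compound OB (log2 fold change 0.64, SE 0.10, limma adjusted p = 0.495). Its groups did not overlap, as was so for 8.74% of all genes tested with compound OB. Gata2 was at 0.68 and Il1rl1 at 0.55 there. With compound PD the largest were Spi1 (0.87; 0.60 without PD DMSO replicate 1), Kit (0.54; 0.50 without it) and Meis1 (0.46; 0.58 without it). Meis1 measured 5.33 to 8.01 FPKM in PD DMSO and 15.19, 7.26 and 7.46 FPKM with compound PD. Kit measured 20.38 to 22.66 FPKM and 41.19, 28.83 and 27.06 FPKM. In compound PD replicate 1, 8 of the 10 progenitor genes lay above the mean of its mates. The fit without both replicates 1 is not given for these genes.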

How the data were processed

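The values are FPKM deposited by the authors with 2 decimals, 1 table per library. STAR and the mm10 build are named in the processing fields, per the submitters' processing notes; how FPKM was computed, on which annotation and with what use of strand is not given in the sources used here. Without counts the depth is unknown, so precision is judged from the spread of 3 libraries. The OB set listed 24054 entries and the PD set 54752. Entries with date names, repeated symbols or non-numeric values (names split at a hyphen) were left out, which left 23599 and 54540 genes, 22270 of them in both. Low values searched for steps of whole reads gave whole ratios (within 0.05) in 8.53% and 9.39% of cases, against 10% by chance, so no reads were recovered.

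Compound and matching DMSO libraries were fitted in limma 3.58.1 (R 4.3.3, statmod 1.5.0, mean-variance trend, robust moderation) on log2(FPKM + 1), which understates fold changes of low genes, keeping genes whose mean reached 1 FPKM. P-values were two-sided, adjusted by the Benjamini-Hochberg method over all genes tested, with a threshold of 0.05. The fit was run on simulated data as a check of the code only. Their noise was independent between genes and libraries, without the shared library deviations of these data. In the OB set same-numbered libraries deviated together from their group means (r = 0.836, 0.456 and 0.707 over 7888 genes with at least 5 FPKM), so numbers were taken to pair the libraries. Libraries of unlike number had r of −0.734 to 0.398. OB DMSO replicate 2 was at 0.398 with compound OB replicate 3, and OB DMSO replicate 3 at 0.279 with compound OB replicate 2. The pairing is therefore less clear for number 2. A library's deviation from its mates is its log2(FPKM + 1) minus the mean of the other libraries of its group. Sequences and positions are RefSeq's (GRCm38.p6). Python 3.11.15, pandas 2.3.3, numpy 2.4.6 and matplotlib 3.10.9 were used.

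The members and gene lists were chosen with earlier results of these data known. All members are named. From each other list of heme, iron, erythroid and progenitor genes, called genes are named. Otherwise the up to 3 with the largest differences from DMSO and a mean of at least 5 FPKM are named. From lists of other cell types only called genes are. Gata1 and the 5 neutrophil markers above the mates in compound PD replicate 1 were added after their values were seen. Some results are not reported here.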

Additional observations from a re-analysis of the deposited data

How the results depend on the processing

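None of the 9 heme genes was called in any comparison under any alternative run (513 values, smallest adjusted p 0.0697 with limma), and 494 of these values kept their direction while 19 turned. After compound OB, Slc25a38 (0.0224) turned to −0.0132 with median-ratio scaling, with and without the replicate block, and to −0.0088 with quantile normalization. Leaving out 1 library turned Slc25a38 to −0.0821, Alad to −0.0666 and Ppox to −0.0136 (without OB DMSO replicate 2), Alas2 to −0.0072 and Alad to −0.0218 (without compound OB replicate 1), and Uros to 0.0163 (without compound OB replicate 2); over these fits the other ends of the ranges were 0.1155 (Slc25a38), 0.3502 (Alad), 0.1313 (Ppox), 0.2602 (Alas2) and −0.1341 (Uros). With the replicate block and without replicate 2, Alad was −0.0425 and Slc25a38 −0.0578. After compound PD, Alas2 turned to 0.1117 and Ppox to 0.0754 without PD DMSO replicate 1, and their lowest values with 1 library left out were −0.6792 and −0.5548. Alas2 (0.3442), Uros (0.1265) and Ppox (0.181) turned, and the median of the heme genes went from −0.4116 to −0.0339, with the block and without replicate 1 and also with PD DMSO 1 and compound PD 1 left out together, an alternative chosen after seeing the data. Without PD DMSO replicate 1 the median difference between the compounds went from −0.5091 to −0.2612; its lowest value with 1 library left out was −0.5898.

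Counts over all genes were less steady. The count after compound OB (0) was 1 with a pseudocount of 5, 7 with the replicate block, 103 with the block and median-ratio scaling, 1133, 146 and 3 with the block and without replicates 1, 2 and 3, and 0 to 14 with 1 library left out (14 without OB DMSO replicate 1). The count after compound PD (3) was 1 with a pseudocount of 5, 0 with no filter, without trend and robust moderation, and with the block and median-ratio scaling, 41 with the replicate block, 206, 70 and 82 with the block and without replicates 1, 2 and 3, 0 to 167 with 1 library left out (167 without PD DMSO replicate 1, 1 without PD DMSO replicate 2, 0 without any compound PD library) and 252 with both replicates 1 left out. For the difference between compounds (0) it was 3 with a pseudocount of 0.1 and with no filter, 6 without trend and robust moderation, and 0 to 15 with 1 library left out (15, 4 and 1 without PD DMSO replicates 1, 2 and 3). The causes were not tested. In the PD set same-numbered libraries did not deviate together (r = −0.025, −0.057 and −0.028 over 8960 genes), so the numbers there are not taken as pairs. The block changed no call on a heme gene in either set. Depth is unknown, so limits set by low counts cannot be given.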
